A study of Monodelphis domestica with 9 samples.

Results

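The genes described here are 4 members of the CCN family (WISP1, WISP2, CTGF and CYR61) and CTNNB1, the gene of β-catenin. With them are 5 genes grouped here as secreted inhibitors of Wnt signalling (SFRP1, SFRP2, FRZB, DKK1 and DKK3). They were chosen by name, with earlier results of these data known. All 10 are among the 22725 genes of the deposited table, where they hold 12 of 37421 TSS groups (sets of transcripts that share a start site). The paper lists WISP1 among the upregulated genes of this same RNA sequencing. A high place of WISP1 among the genes described here is thus no independent finding. The RNA came from pups of the opossum *Monodelphis domestica*, 3 at each of postnatal days 16, 18 and 20 (P16, P18 and P20). By the paper's Methods, Meckel's cartilage (MC) and the malleus were captured by laser where they join, with little of the perichondrium around them. Its Results instead describe MC with its perichondrium, just in front of the malleus. The RNA was amplified before sequencing. Each value is the mean of a condition in FPKM, a unit that by definition scales fragments to transcript length and to library size. This lets levels of different genes be compared within a condition. The conditions are coded q1, q2 and q3. The sums of FPKM used for scaling below were 121537 in q1, 447110 in q2 and 808198 in q3. Values of different conditions are thus not taken to lie on a common scale. No source used here ties a code to a stage, and no order in time is read from the codes. First and second step below mean only the comparisons q2 to q1 and q3 to q2. There are no values for single animals, so no value below has an error, no difference has a replicate check, and depth is unknown. Values of q3 were read for 8 of the 10 genes. The listing used here ends before those of SFRP1 and CTNNB1, which were not analysed in q3.

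Wnt ligands bind Frizzled receptors and LRP co-receptors at the cell surface, which stabilizes β-catenin and lets it activate genes together with TCF factors. Secreted Frizzled-related proteins bind the ligands themselves, while DKK1 blocks the LRP co-receptors. CCN proteins are secreted matrix-associated factors, and in mammals WISP1 is a Wnt target, while CTGF and CYR61 are much used as readouts of YAP and TEAD activity and also respond to TGF-β. In the skeleton the balance between Wnt ligands and their inhibitors bears on whether precursors form bone or cartilage.

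FPKM were higher for most genes from code to code, so each gene was read against this shift. Among genes with a mean FPKM of at least 1 in the conditions compared, the median log2 ratio was 0.61 for q2 to q1 (10337 genes), 1.33 for q3 to q2 (8782 genes) and 1.96 for q3 to q1 (8837 genes). A log2 ratio less this median is called centred below. Of all genes, 8.67% had a centred ratio of at least 1 for q2 to q1 and 12.2% one of -1 or less. For q3 to q2 these shares were 9.35% and 14.2%, and for q3 to q1 they were 14.1% and 20.9%. These counts are of condition means and involve no test. A gene listed at 0 is not taken as silent, because COL2A1 and COL1A2, abundant collagens of cartilage and bone, are also listed at 0 in q1 and q2.

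WISP1 (CCN4 in RefSeq, chr3:412111897-412156766, the build of these positions being not given in the sources used here) was higher in q2 than in q1 by more than any other of the 10 genes. It had 8.67 FPKM in q1, 38.9 in q2 and 70.6 in q3. Within captured tissue a higher level can come from more cells of a type or from more RNA per cell, and these cannot be told apart. The level in q2 was 4.49 times that in q1, and 3.08% of all genes had a larger ratio. WISP1 was chosen with its upregulation in these data already known, so this place was not an independent finding. From q2 to q3 the level was 1.82 times higher, less than the shift of all genes, and 73.1% of genes had a larger ratio. Its centred ratio was 1.56 for q2 to q1, -0.47 for q3 to q2 and 1.06 for q3 to q1. Scaled to equal sums of FPKM the first of these was 0.29, below 1, while on housekeeping genes it was 1.07. The value of 1.06 was the only one among the 8 genes with a q3 value to lie at least 1 above the median for q3 to q1, where 14.1% of all genes did. It depends on the scaling too and was 0.58 when centred on housekeeping genes and 0.29 under equal sums.

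CTGF and CYR61, matrix-associated factors that act on adhesion and on matrix synthesis, had the reverse order of steps. CTGF (CCN2 in RefSeq, chr2:405866049-405869989) had means of 25.1, 22.5 and 113 FPKM. CYR61 (CCN1 in RefSeq, chr2:42296332-42303082) had 13.0, 11.1 and 57.3 FPKM. Both were thus at nearly the same FPKM in q1 and q2 and about 5 times higher in q3 than in q2, at 5.05 times for CTGF and 5.18 times for CYR61. Their centred ratios were -0.77 and -0.84 for q2 to q1 and 1.003 and 1.04 for q3 to q2. Centred on genes with a mean FPKM of at least 10, the first 2 values became -1.04 and -1.11. The ratio of CTGF to CYR61 was nearly the same in each condition, at 1.93 in q1, 2.03 in q2 and 1.98 in q3. No scaling between conditions can alter this ratio. CYR61 has 2 TSS groups, and the larger, TSS128047, held 84.2%, 81.0% and 86.4% of its FPKM in q1, q2 and q3. The smaller, TSS128046, had 2.05, 2.10 and 7.78 FPKM, so both start sites had the low first and high second step.

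WISP2, a CCN protein that lacks the C-terminal domain of the others (CCN5 in RefSeq, chr1:500479012-500497432), had the same order of steps as CTGF at a lower level. It had 2.79 FPKM in q1, 1.66 in q2 and 10.3 in q3. Its centred ratio of -1.36 for q2 to q1 was the lowest of the 10 genes, and that of 1.30 for q3 to q2 was the highest of the 8. With a pseudocount of 1 FPKM these became -0.95 and 0.99, so at such low FPKM neither clearly passes 1.

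DKK1 and DKK3 differed in their order of steps. DKK1 (chr1:41981797-41987322) had means of 10.4, 29.9 and 49.8 FPKM. It was 2.89 times higher in q2 than in q1 and 1.67 times higher in q3 than in q2. Before centring, it thus had most of its log2 difference in the first step, like WISP1 (67.5% for DKK1 and 71.5% for WISP1). Such shares depend on the scaling, and the median log2 ratio of all genes was 0.61 in the first step and 1.33 in the second. The centred ratios of DKK1 were 0.92 for q2 to q1 and -0.60 for q3 to q2. The first was 1.04 without a filter on low values and -0.35 when the conditions were scaled to equal sums, so both its side of 1 and its sign depend on the scaling. DKK3 (chr5:251985669-252051954), a relative of DKK1 whose effect on Wnt signalling is less settled, had 12.4, 12.7 and 70.5 FPKM. Its level in q2 was 1.02 times that in q1 and its level in q3 was 5.57 times that in q2, with centred ratios of -0.58 and 1.15. DKK2, not among the 10 genes, had 0.49, 0.80 and 3.04 FPKM and centred ratios of 0.11 and 0.59. The ratio of DKK1 to DKK3 was 0.83, 2.36 and 0.71 in the order q1, q2, q3.

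The Frizzled-related proteins lay nearer to the shift of all genes or were scarce. SFRP2 (chr5:123329459-123340507) had means of 11.5, 17.4 and 55.0 FPKM, with centred ratios of -0.01 and 0.33 for the 2 steps. SFRP1 (chr1:576476338-576554903) had 11.4 FPKM in q1 and 13.9 in q2, a centred ratio of -0.32. FRZB (chr4:196768992-196830999), which binds Wnt ligands and is known from developing cartilage, was the lowest of the 10 genes in q1 and q2 and of the 8 in q3, at 1.29, 1.05 and 1.82 FPKM. Its centred ratios were -0.91 for q2 to q1 and -0.53 for q3 to q2. For q3 to q1 its centred ratio of -1.46 was the only one of -1 or less among the 8 genes, against 20.9% of all genes. FRZB has 2 TSS groups. TSS303311 had 0.94, 0.71 and 1.70 FPKM and TSS303310 had 0.34, 0.34 and 0.12, which is 26.7%, 32.5% and 6.46% of the gene. Values this low carry an unknown counting error.

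CTNNB1 (chr8:268895024-268942574), which carries the Wnt signal into the nucleus, had 20.1 FPKM in q1 and 41.0 FPKM in q2. The ratio of 2.04 corresponds to a centred ratio of 0.42, and 26.4% of all genes had a larger one. It was -0.06 when centred on housekeeping genes, so its place above or below the shift is not settled.

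**Figure D1:**
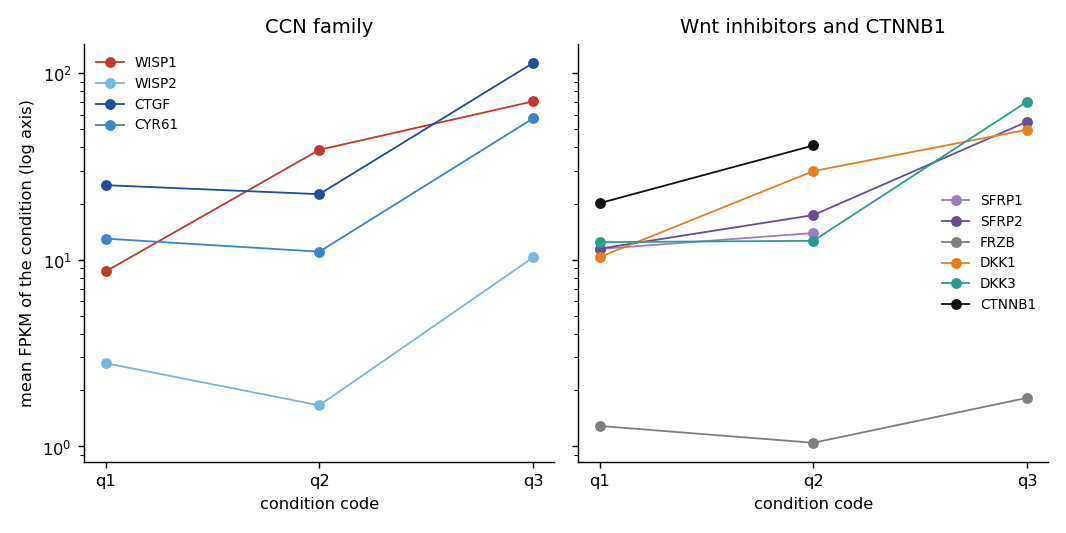
Mean FPKM (log axis) of the 4 CCN genes (left) and of the 5 Wnt inhibitors and CTNNB1 (right) in the conditions coded q1, q2 and q3. Each point is the authors' mean of a condition without an error, and lines only join the points of a gene. WISP1 lies below CTGF in q1 (8.67 against 25.1) and in q3 (70.6 against 113) and above CTGF in q2 (38.9 against 22.5).

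Counted over the 10 genes, WISP1 was the only one at least 1 above the median for q2 to q1 and WISP2 the only one at least 1 below, where 8.67% and 12.2% of all genes were. Both counts depend on the scaling. Centred on genes of at least 10 FPKM, CTGF, CYR61 and FRZB joined WISP2 below -1, and on housekeeping genes DKK3 did as well (-1.25 for CTGF, -1.32 for CYR61, -1.39 for FRZB and -1.07 for DKK3). Under equal sums no gene was above 1 and 7 of 10 were below -1. For q3 to q2, 4 of 8 were at least 1 above (WISP2, CTGF, CYR61 and DKK3), where 9.35% of all genes were, and none was at least 1 below, where 14.2% were. CTGF and CYR61 lie at the limit itself. Centred on genes with a mean FPKM of at least 10, CTGF, CYR61 and DKK3 had ratios of 0.82, 0.86 and 0.96. For q3 to q1, WISP2, CTGF, CYR61, SFRP2, DKK1 and DKK3 had centred ratios from -0.08 to 0.54, inside the interquartile range of all genes (-0.79 to 0.61). Those of CTGF, CYR61, SFRP2 and DKK1 were below 0 when centred on housekeeping genes or on genes of at least 10 FPKM. WISP1 lay above this range and FRZB below it. The medians over the 10 or 8 genes were -0.45, 0.67 and 0.25 for q2 to q1, q3 to q2 and q3 to q1.

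**Figure D2:**
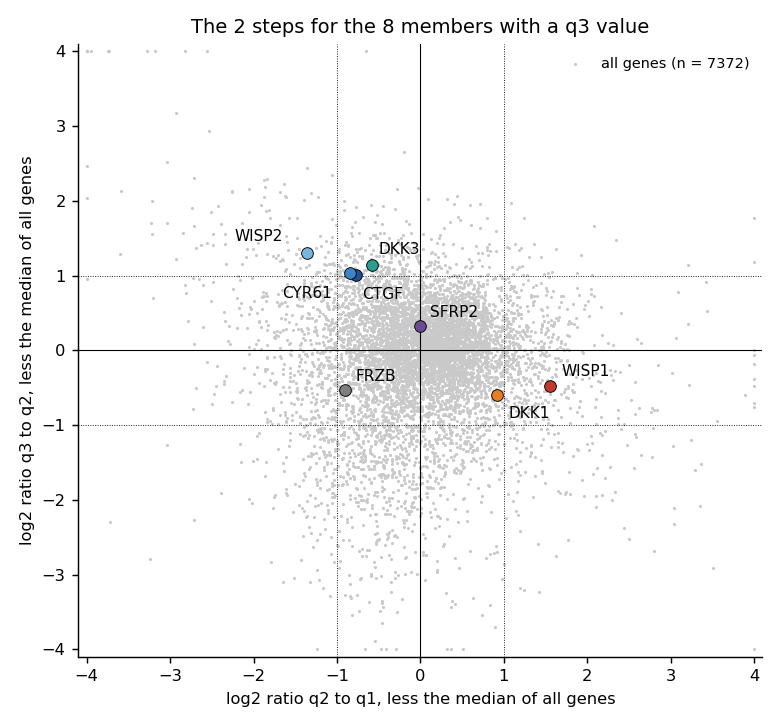
Centred log2 ratios of q2 to q1 (horizontal) and of q3 to q2 (vertical) for the 8 genes with a q3 value (coloured) among 7372 genes measured in all 3 conditions (grey). Dotted lines mark 1 and -1, and genes beyond 4 on either axis are drawn at 4. WISP1 and DKK1 lie to the lower right, CTGF, CYR61, DKK3 and WISP2 to the upper left, FRZB to the lower left and SFRP2 near the centre. Of all genes, 23.5% lay below the median in the first step and above it in the second, and 5.26% lay at least 1 above in the first and below in the second. An error in the mean of q2 would move a point along the line from upper left to lower right.

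The contrast of WISP1 with CTGF and with the secreted inhibitors was then taken within each condition, where scaling between conditions drops out. WISP1 stood at 0.34 of the FPKM of CTGF in q1, at 1.73 in q2 and at 0.62 in q3. The log2 ratio of the pair was thus higher in q2 than in q1 by 2.33, lower in q3 than in q2 (-1.47) and higher in q3 than in q1 by 0.85. Against CYR61 WISP1 stood at 0.67, 3.51 and 1.23, and against WISP2 at 3.10, 23.4 and 6.86. Against each CCN gene WISP1 was highest in q2 and higher in q3 than in q1. The high value in q2 rests on the means of q2 alone.

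Among the 5 inhibitors described here, the closest to WISP1 over the conditions was DKK1. SOST, a secreted inhibitor outside these 5, was closer still, as given below. WISP1 stood at 0.84 of the FPKM of DKK1 in q1, at 1.30 in q2 and at 1.42 in q3. The difference of the log2 ratios of WISP1 and DKK1 was thus 0.64 for q2 to q1 and 0.13 for q3 to q2. Against SFRP2 it stood at 0.75, 2.24 and 1.29, and against DKK3 at 0.70, 3.07 and 1.003. Against FRZB it stood at 6.73, 37.1 and 38.8. In q1 and q2 it stood at 0.76 and 2.79 of SFRP1 and at 0.43 and 0.95 of CTNNB1. The log2 ratio of WISP1 exceeded the median of the inhibitors by 1.88 for q2 to q1 (5 inhibitors) and by 0.76 for q3 to q1 (4 inhibitors). For q3 to q2 the difference was -0.37, which became 0.06 without SFRP2 or without DKK3, so no direction is read for that step.

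Of the pairs without WISP1, those of DKK1 and SFRP2 stood apart in q2. DKK1 stood at 0.41 of CTGF in q1, at 1.33 in q2 and at 0.44 in q3, and SFRP2 at 0.46, 0.77 and 0.48. DKK1 stood at 0.90 of SFRP2 in q1, at 1.72 in q2 and at 0.91 in q3. In q3 these pairs were thus within a log2 difference of 0.09 from q1, and the separation of DKK1 from CTGF rests on the mean of q2 alone. The same comparison of q3 with q1 gave 0.33 for DKK3 to CTGF, -0.29 for WISP2 to CTGF and -1.67 for FRZB to CTGF.

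As shares of the summed FPKM of the 8 genes, WISP1 made up 10.2% in q1, 28.8% in q2 and 16.5% in q3. The share of DKK1 was 12.2%, 22.1% and 11.6%, and that of CTGF 29.5%, 16.7% and 26.5%. CYR61 had 15.3%, 8.19% and 13.4%, DKK3 had 14.6%, 9.37% and 16.4%, and SFRP2 had 13.5%, 12.9% and 12.8%. CTGF was thus the largest of the 8 in q1 and q3 and WISP1 the largest in q2. The sum itself came to 85.2, 135 and 429 FPKM.

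**Figure D3:**
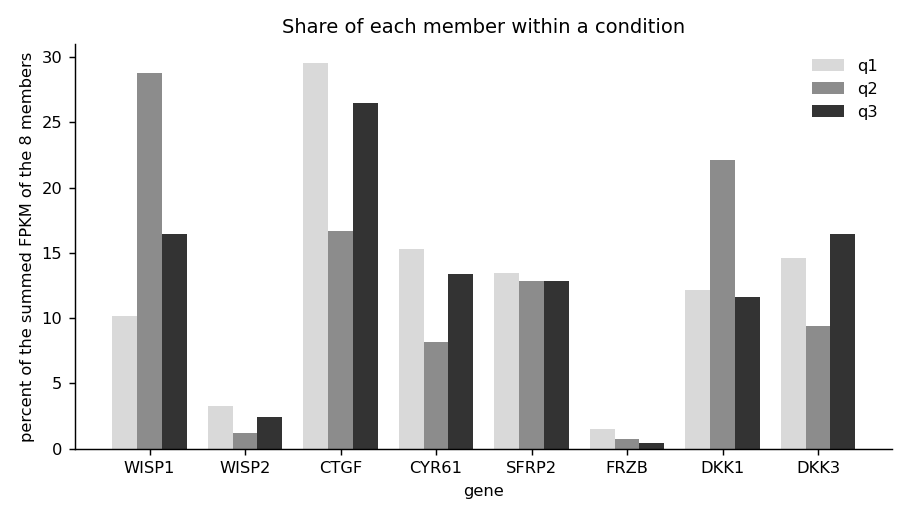
Share of each of the 8 genes in their summed FPKM (percent) in q1 (light), q2 (grey) and q3 (dark). The shares of WISP1 and DKK1 are largest in q2 (28.8% and 22.1%), those of CTGF, CYR61 and WISP2 are smallest there, and that of SFRP2 hardly differs (12.8% to 13.5%).

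The order of genes within a condition is also free of scaling. It is taken from the same condition means, so it is a further description and no separate support. The set of genes ranked was chosen on FPKM not rescaled between conditions, so the percentages would differ somewhat under another scaling. Among 8709 genes with a mean FPKM of at least 1 over the 3 conditions, WISP1 lay above 87.6% in q1, 94.6% in q2 and 91.8% in q3. DKK1 lay above 89.6%, 93.2% and 88.9%. CTGF lay above 95.1%, 91.5% and 94.4%, CYR61 above 91.7%, 83.6% and 90.4%, and DKK3 above 91.3%, 85.7% and 91.8%. For WISP2 the ranks were 58.7%, 27.1% and 59.2%, and for FRZB 27.2%, 13.0% and 11.2%. SFRP2 kept nearly the same rank, at 90.5%, 89.3% and 89.9%.

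The rest of the pathway was read from 10 lists of 116 symbols that include these genes, of which 106 are in the table. Without the 10 genes, 52 had a mean FPKM of at least 1 for q2 to q1, and 3 were at least 1 above and 2 at least 1 below the median of all genes, where 8.67% and 12.2% of all genes were. For q3 to q1, 5 of 47 were at least 1 above and 7 at least 1 below, where 14.1% and 20.9% of all genes were. The median centred ratio of these genes was 0.02 for q2 to q1 and 0.16 for q3 to q1.

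Among the other secreted inhibitors, SOST (sclerostin), which is made by osteocytes and binds LRP co-receptors, had means of 6.08, 23.8 and 36.3 FPKM, with centred ratios of 1.36 and -0.72 for the 2 steps. TRABD2A, a protease that inactivates Wnt ligands, had 0.23, 1.43 and 7.36 FPKM. SFRP4, a further Frizzled-related protein, had 6.25, 11.9 and 13.2 FPKM, with a centred ratio of -1.17 for q3 to q2. SFRP5 had 0.05, 0.91 and 1.70 FPKM. The remaining CCN genes were scarce. WISP3 had 1.06 FPKM in q1, is listed at 0 in q2 and had 0.46 in q3, and NOV had no more than 0.30 in any condition.

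Few Wnt ligands reached a mean FPKM of 1. Of 25 genes of ligands and their secretion, 7 did so for q2 to q1, and none of these was at least 1 above the median. RSPO2 and RSPO3, R-spondins that strengthen Wnt signalling, were at least 1 below, both at the limit (-1.001 and -1.02). RSPO3 had 10.5, 7.93 and 14.8 FPKM. For q3 to q1, WNT5A, a ligand that mostly acts without β-catenin, had a centred ratio of -2.12 and FPKM of 1.55, 1.77 and 1.39. WNT11 went the other way, at 0.02, 0.51 and 2.92 FPKM, and WNT3 had 1.10, 0.19 and 0.89. Among receptors, FZD4 had 0.62, 2.90 and 4.62 FPKM and centred ratios of 1.61 for q2 to q1 and -0.66 for q3 to q2, where WISP1 had 1.56 and -0.47. FZD9 had 8.06, 7.12 and 13.2 FPKM, with a centred ratio of -1.25 for q3 to q1. LGR6 and ROR1 had FPKM below 1 in 2 of the 3 conditions.

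Inside the cell, none of 10 genes of β-catenin and its destruction complex was past 1 in either direction for q2 to q1. For q3 to q1, TNKS and DVL1 had centred ratios of -1.43 and -1.25 at FPKM of no more than 2.92. TCF7L1, a TCF factor that mostly represses, had 0.47 FPKM in q1 and 1.84 in q2. Of the feedback targets, AXIN2, the most used readout of β-catenin activity, had 2.91, 3.02 and 4.38 FPKM and a centred ratio of -1.37 for q3 to q1. CCND1, cyclin D1, had 0.31, 1.64 and 4.30 FPKM and one of 1.84. LEF1 and TNFRSF19, also named as targets, had 5.77, 5.29 and 14.4 FPKM and 3.52, 3.59 and 11.7 FPKM. Of 6 measured feedback targets, 3 lay above the median of all genes for q3 to q1, and the list median was 0.03. RNF43 and ZNRF3 lay above it with CCND1, at centred ratios of 0.28 and 0.58. WISP1 and AXIN2, both known as Wnt targets, stood on opposite sides of the shift for q3 to q1, and AXIN2 does not stand for the list. Their log2 ratios before centring were 3.03 and 0.59, and the shifts found by the scalings tried ran from 1.56 to 2.73.

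YAP and TEAD factors are known to act on CTGF and CYR61. YAP1 had 2.49, 5.04 and 11.6 FPKM and WWTR1, which encodes TAZ, had 2.35, 4.32 and 10.7. None of the 7 or 8 measured genes of this list was past 1 in any step. For q2 to q1 their median log2 ratio before centring was 1.004, above the 0.61 of all genes and below the 1.09 of housekeeping genes, so their side of the shift depends on the scaling. AXL, a further target of the pathway, had 6.27, 13.1 and 26.6 FPKM, and a log2 ratio of 1.06 for q2 to q1 before centring where CTGF had -0.16. ANKRD1, also a known target, had only 0.27 FPKM in q1 and 0.21 in q2, a log2 ratio of -0.35.

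**Figure D4:**
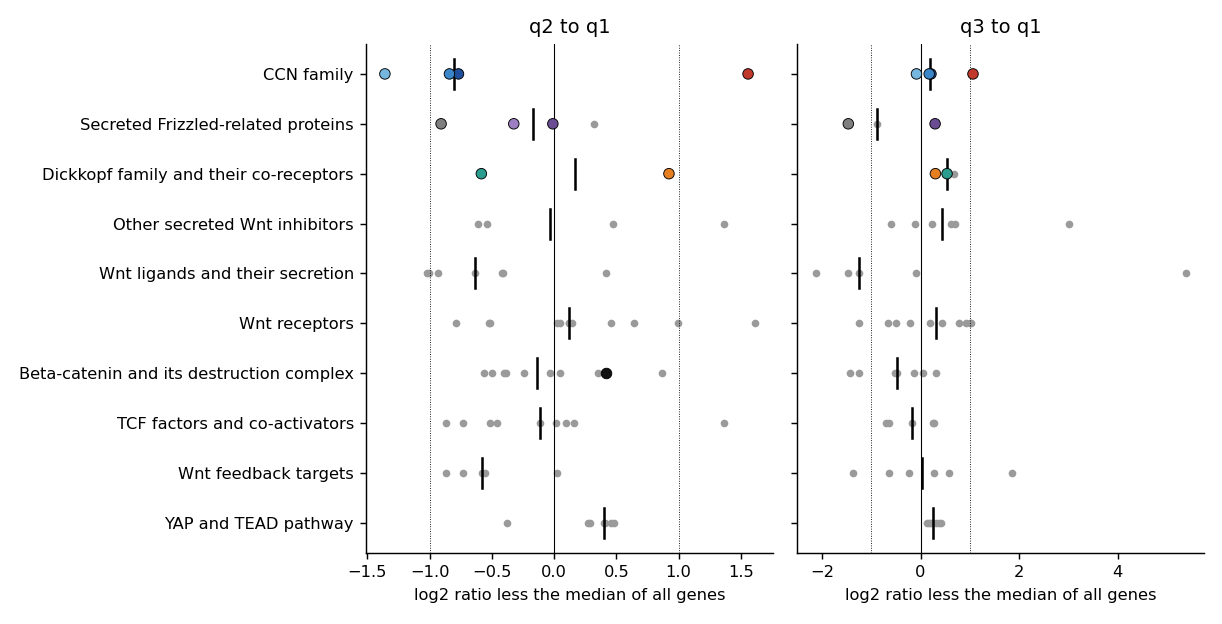
Centred log2 ratios of q2 to q1 (left) and q3 to q1 (right) for the genes of the 10 pathway lists with a mean FPKM of at least 1 in the conditions compared. Each point is a gene, colours mark the genes described here as in the plot of levels, black bars are list medians, and dotted lines mark 1 and -1. WISP1 (red) is the rightmost CCN gene on both sides, at 1.56 and 1.06. The left side has no point beyond 1.61 and the right side reaches 5.38 (WNT11).

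Markers of other cells that the captured tissue could hold also differed between the codes. Of 8 measured markers of osteoblasts and osteocytes, 5 were at least 1 above the median for q2 to q1 (BGLAP, IBSP, SPP1, DMP1 and PHEX) and none for q3 to q2. The shares of all genes were 8.67% and 9.35%. For q3 to q1, 4 of the 8 markers were, against 14.1% of all genes. The median centred ratio of the 8 markers was 1.05 and then -0.04 for the 2 steps, where WISP1 had 1.56 and -0.47, DKK1 0.92 and -0.60, and SOST 1.36 and -0.72. RUNX2, an early factor of osteoblasts, had nearly equal centred ratios in the 2 steps, 0.32 and 0.33 (0.93 and 1.66 before centring). The summed FPKM of these 8 came to 1648, 6431 and 13641, which is 3.05 on the log2 scale from q1 to q3, where WISP1 had 3.03. Most of the sum in q3 was BGLAP, SPP1 and COL1A1, at 3980, 3610 and 3422 FPKM. Singly the 8 ranged from 2.35 (MEPE) to 3.86 (IBSP), with a median of 3.00. Their median log2 ratio for q2 to q1 was 1.66 before centring, below only the shift of 1.88 taken from the sums of FPKM. For clast markers, 3 of 7 were at least 1 above for q2 to q1 and 2 of 8 for q3 to q2, against 8.67% and 9.35% of all genes. For q3 to q1, 7 of 8 were, against 14.1% of all genes, and their list had a median centred ratio of 1.77. The sum of 8 was 1243, 4279 and 20203 FPKM, which is 4.02 on the log2 scale from q1 to q3.

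Chondrocyte markers, apart from a separate list for hypertrophic chondrocytes, went the other way in the first step. Of 12 measured, 8 were at least 1 below the median for q2 to q1 and 1 of 9 for q3 to q2, against 12.2% and 14.2% of all genes. The sum of the 9 with q3 was 850, 455 and 1201 FPKM. In q3 against q1, 7 of 9 were at least 1 below, against 20.9% of all genes, with a median of -1.92 and none above the median of all genes. COL9A2, the most abundant, had 363, 120 and 373 FPKM, COL9A1 had 112, 33.4 and 61.7, and MATN1, matrilin-1 of cartilage, had 33.6, 3.89 and 1.995. The median of this list was -1.77 for q2 to q1 and -0.11 for q3 to q2, where CTGF had -0.77 and 1.003. Of hypertrophic chondrocyte markers, all 4 measured lay above the median for q2 to q1 and for q3 to q1. Their median centred ratios were 0.55 and 1.15. COL10A1 and ALPL were at least 1 above for q3 to q1 (2.15 and 1.46), against 14.1% of all genes. IHH, at no more than 0.30 FPKM, was not measured. With IHH the list summed to 159, 305 and 1145 FPKM. Endothelial markers had 3 of 7 at least 1 above for q3 to q2, against 9.35% of all genes, with sums of 22.2, 33.3 and 141 FPKM. Of 9 perichondrial and fibroblast markers, POSTN and DCN were past 1 for q2 to q1, against 8.67% of all genes. The sum of the 5 with q3 was 295, 639 and 1438 FPKM. COL3A1 was the most abundant of these, at 217, 483 and 1103 FPKM. Of 4 measured blood cell markers, 3 were at least 1 above the median for q2 to q1, against 8.67% of all genes. These were ALAS2 at 3.31, EPB42 at 1.16 and CSF1R at 1.66, in the step in which WISP1 was high. None of the 3 has a q3 value here. The sum of the 3 blood cell markers with q3 was 29.8, 69.2 and 180 FPKM, most of it MPO (29.2, 66.9 and 172). Muscle markers (5 with q3) had sums of 6.95, 18.6 and 45.5 FPKM, and Schwann cell and neuron markers (4 with q3) had 5.23, 5.41 and 1.14. The lower sum in q3 rests on TUBB3 (4.04, 3.89 and 0.07 FPKM), and the others with q3 stayed below 1 FPKM. What part these cells have in the levels of the 10 genes was not tested.

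The genes most like WISP1 were looked for among 5197 named genes that reached 1 FPKM in each condition, by the distance between the 2 centred steps. The 5 nearest were C12orf65, INPP5K, RGCC, RITA1 and AGPAT6, at distances of 0.06 to 0.18. RGCC, a regulator of the cell cycle, also had nearly the same FPKM, at 8.81, 43.2 and 72.4. SOST was nearer to WISP1 than all but 26 of these genes and DKK1 than all but 147. Nearest to CTGF were SLC39A3, CCNG2, ALDOC, MRPS18A and DHX30, at 0.03 to 0.06. CYR61 followed after 8 genes, at 0.08, while 65 genes were nearer than DKK3 and 502 nearer than WISP2. These distances rest on 3 condition means and are a description.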

How the data were processed

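RNA was sequenced from 9 samples, 3 pups at each of 3 stages. TopHat, Cufflinks and Cuffdiff are named in the submitters' processing notes. Their versions, the build and any scaling of libraries were not given in the sources used here. Deposited by the authors were condition means in FPKM per TSS group, with fold changes, p-values and q-values of their own comparisons, which were not used. A second deposited table repeats their called tests and was not used. The first ends after 65535 rows, so q3 was read for 28026 TSS groups (74.9%), in the order of their identifiers and whatever their values. The 10 genes and the lists were chosen with earlier results of these data known.

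FPKM were summed over the TSS groups of a gene, and q3 was used for the 16615 genes with q3 for every group. Log2 ratios had no pseudocount and were centred on the median of genes with both values above 0 and a mean FPKM of at least 1. A centred ratio of 1 was the limit for counts. No test was possible on 1 mean per condition. All 10 genes passed the filter on low values. Named genes of a list are the up to 4 farthest from the median for q2 to q1 or q3 to q1, beyond 1 and with at least 1 FPKM in a condition, or with none the 2 most abundant. NOV, DKK2, ANKRD1, RUNX2, MATN1, COL9A1, SFRP4, RSPO2, LEF1, TNFRSF19, WWTR1, COL2A1, COL1A2 and the place of SOST were chosen after their values were seen. So were RNF43, ZNRF3, COL10A1, IHH and MEPE. The code was tested on simulated ratios. Python 3.11.15, numpy 2.4.6 and pandas 2.3.3 were used.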

Additional observations from a re-analysis of the deposited data

How the results depend on the processing

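No paired analysis was possible because the values are condition means, and for the same reason no animal could be left out. The ratios of WISP1 to CTGF kept their sign with a pseudocount of 1 FPKM (2.20, -1.44 and 0.76), and since each of these genes has 1 TSS group, the choice of TSS group could not bear on them. Scaling to equal sums of FPKM moved most centred ratios, and TBC1D22B alone held 21.3%, 39.9% and 25.3% of those sums in q1, q2 and q3. Under it WISP1 had 0.29 for q2 to q1 and 0.29 for q3 to q1. For q3 to q1 it had 0.65 when centred on genes with a mean FPKM of at least 10, 0.58 on housekeeping genes (6 with q3) and 0.999 with the highest TSS group only. Of 26 centred ratios of the 10 genes, 8 changed sign under equal sums, 5 on housekeeping genes, 4 on genes of at least 10 FPKM, 2 without a filter, 2 with a pseudocount of 1 and 1 with one of 0.1. Pathway genes past 1 were 4 above and 3 below for q2 to q1, 6 and 2 for q3 to q2, and 6 and 8 for q3 to q1. With a minimum of 0.1 FPKM there were 13 and 7, 11 and 4, and 12 above for q3 to q1. Under equal sums there were 0 and 42, 12 and 1, and 3 and 17. With a limit of 1.5 there were 2 and 0, 0 and 1, and 3 and 1.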
